A study of Mus musculus with 12 samples.

Results

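The Mnx1 and LIM homeodomain code is a set of 7 genes that specify spinal motor neurons: Mnx1, Isl1, Isl2, Lhx3, Lhx4, Lmo4 and Ldb1. They were picked by gene name, and all 7 were found among the 30740 gene entries of the deposited count table. The libraries held polyA RNA of sorted cells from the ventral spinal cord of CB6F1/J mouse embryos at E12.5 (embryonic day). Sorting was by the Hb9:GFP reporter, a transgene driven by the promoter of Mnx1 (Hb9). The 12 libraries form 4 groups: 5 GFP-positive libraries from Arhgap35 knockout embryos, 5 GFP-positive libraries from controls, 1 GFP-negative library from knockout embryos and 1 GFP-negative library from controls. Arhgap35 encodes p190, a GTPase-activating protein. Controls carry the label wild type, although the protocol describes control littermates as either wild-type or p190+/-, and tissue was pooled before it was dissociated and sorted. All 12 libraries are labelled motor neuron, the GFP-negative ones included.

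Each motor neuron factor of the code binds DNA through a homeodomain, and Isl1, Isl2, Lhx3 and Lhx4 also carry a pair of LIM domains. Through its LIM domains a factor docks on the adaptor Ldb1, which dimerises, so that Ldb1 joins Isl1 and Lhx3 into a larger complex that switches on motor neuron genes, while Ldb1 with Lhx3 alone is used in V2 interneurons. Lmo4 consists of LIM domains without a homeodomain and competes for Ldb1, and Mnx1 represses interneuron genes and so holds the motor neuron fate in place. Lhx3 and Lhx4 are at first made by most newborn motor neurons and are later kept by those of the medial motor column, which innervate axial muscle.

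The 250 bases before the RefSeq start of Mnx1, Isl1, Isl2 and Lhx4 and the upstream start of Lhx3 are shown because these were the 5 genes that differed most between sorts and because the sorted reporter itself runs from the Mnx1 promoter. They come from RefSeq (GRCm38.p6), where all 7 genes matched by symbol, and read 5′ to 3′ on the strand of the gene. Capitals mark TAAT, the core that homeodomains recognise, and CCAAT, on either strand. The windows are chr5:29478471-29478720 (minus strand) for Mnx1, chr13:116309689-116309938 (minus) for Isl1, chr9:55540899-55541148 (plus) for Isl2, chr2:26208250-26208499 (minus) for Lhx3 and chr1:155742028-155742277 (minus) for Lhx4. For Isl2, Lhx3 and Lhx4 the RefSeq start lies inside the gene span of a second annotation, GENCODE M21.
Mnx1: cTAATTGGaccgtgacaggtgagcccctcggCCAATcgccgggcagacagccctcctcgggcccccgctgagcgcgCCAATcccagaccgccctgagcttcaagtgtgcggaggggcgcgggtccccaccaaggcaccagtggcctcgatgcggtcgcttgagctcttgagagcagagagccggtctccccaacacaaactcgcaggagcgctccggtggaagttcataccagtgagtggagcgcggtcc
Isl1: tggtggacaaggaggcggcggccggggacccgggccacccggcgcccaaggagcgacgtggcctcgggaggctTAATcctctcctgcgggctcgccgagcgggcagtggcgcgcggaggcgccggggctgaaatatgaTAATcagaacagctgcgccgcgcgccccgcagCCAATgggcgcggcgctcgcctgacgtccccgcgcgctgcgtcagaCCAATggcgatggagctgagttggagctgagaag
Isl2: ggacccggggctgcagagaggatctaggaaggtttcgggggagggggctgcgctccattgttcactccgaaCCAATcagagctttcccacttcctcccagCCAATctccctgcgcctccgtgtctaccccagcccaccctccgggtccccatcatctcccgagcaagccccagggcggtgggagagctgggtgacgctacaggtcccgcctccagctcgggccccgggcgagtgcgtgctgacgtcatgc
Lhx3: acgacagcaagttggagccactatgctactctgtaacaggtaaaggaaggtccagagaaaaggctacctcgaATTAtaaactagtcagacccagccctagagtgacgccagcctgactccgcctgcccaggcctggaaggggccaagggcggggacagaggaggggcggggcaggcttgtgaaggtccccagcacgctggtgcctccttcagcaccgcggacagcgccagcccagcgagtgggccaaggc
Lhx4: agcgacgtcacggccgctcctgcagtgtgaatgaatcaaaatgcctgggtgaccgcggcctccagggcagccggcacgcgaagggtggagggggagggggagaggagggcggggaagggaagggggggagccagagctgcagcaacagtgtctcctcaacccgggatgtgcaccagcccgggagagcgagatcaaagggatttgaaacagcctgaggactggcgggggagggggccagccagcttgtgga
TAAT was found once in the Mnx1 window, where it overlaps an inverted CCAAT, 2 times in Isl1 and once in Lhx3, and these letters were not in the Isl2 and Lhx4 windows. Of 32817 promoter windows of this length, 54.9% hold TAAT and 33.8% hold CCAAT. The CCAAT box, a common promoter element, occurred 3 times in Mnx1 and 2 times each in Isl1 and Isl2. Among windows not shown, Ldb1, which was lower in GFP-positive cells, held TAAT 2 times at its start 3 and CCAAT once at start 1. Start 2 of Ldb1, the other Lhx3 start and the Lmo4 windows held neither.

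On GRCm38, with GENCODE M21, the genes lie on separate chromosomes. Mnx1 spans chr5:29473034-29478470, Isl1 chr13:116298281-116309689, Isl2 chr9:55538672-55546180, Lhx3 chr2:26200212-26208289, Lhx4 chr1:155698031-155751684, Lmo4 chr3:144188530-144205220 and Ldb1 chr19:46031570-46045214. The library kit does not keep strand. Lhx3 shares 188 exonic bases (6.17% of its exons) with the antisense gene Gm27196, and Ldb1 shares 177 (3.84%) with Pprc1 on the opposite strand, so reads from those bases cannot be told apart. The other 5 genes share no exonic bases with another gene.

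Library totals ran from 23.7 M to 33.8 M estimated counts (M for mega). The motor neuron label was checked on 7 markers (Mnx1, Isl1, Isl2, Chat, Slc18a3, Slc5a7, Prph), which summed to 1468 to 1840 CPM (counts scaled to library size with TMM factors) in knockout and 1397 to 1840 CPM in control GFP-positive libraries, against 36.9 CPM in the knockout and 38.0 CPM in the control GFP-negative library. Of these markers Mnx1, Isl1 and Isl2 are members of the code, and the low Mnx1 follows from the sort. Prph, neither a member nor a cholinergic gene, averaged 467 CPM in knockout and 440 CPM in control GFP-positive cells. In the knockout and control GFP-negative libraries it had 3.25 and 3.22 CPM. The GFP-negative libraries therefore lacked the RNA profile of their label and are called GFP-negative cells here. Arhgap35 itself stood at 88.2 to 106 CPM in knockout and 135 to 202 CPM in control GFP-positive libraries, with no overlap. Its log2 fold change was -0.83 (edgeR adjusted p = 0.024), and 0.538% of genes tested did not overlap. The labels do not say which part of the gene is missing, so these reads are not taken as a check of genotype. GFP-positive replicates 1 of both genotypes had the highest sums of V2, dorsal interneuron and sensory markers. V2 interneuron genes (8 genes) summed to 19.3 CPM in knockout replicate 1 and 3.52 to 6.07 CPM in the other knockout libraries, and to 26.9 CPM in control replicate 1 and 2.88 to 7.06 CPM in the other controls. Endothelial markers (4 genes) summed to 11.9, 5.43 and 5.23 CPM in knockout replicates 2, 3 and 5, against at most 3.78 CPM in control GFP-positive libraries, and erythroid markers (4 genes) to 25.2, 10.7 and 15.8 CPM in the same knockout libraries, against at most 9.44 CPM in controls. Mesenchymal markers (4 genes) exceeded the controls' highest sum, 4.51 CPM, in knockout replicates 2 (10.7 CPM) and 3 (5.10 CPM). Median log2 fold changes between genotypes were 0.78, 0.62 and 0.39 for endothelial, erythroid and mesenchymal markers, none of which was called, and their part in the comparison of the 7 genes was not tested. No label ties replicates to separate embryos or litters, and the spread that every p-value rests on may therefore be technical.

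The first comparison asked whether the code is expressed at the same level in GFP-positive cells of Arhgap35 knockout embryos. None of the 7 genes passed the test between genotypes in GFP-positive cells (edgeR's quasi-likelihood test, Benjamini-Hochberg adjusted over 17487 genes), where 0.0343% of all genes tested did (0.00572% higher and 0.0286% lower in knockout cells). None reached an unadjusted p of 0.05, and DESeq2 and limma-voom also called 0 of 7. The median log2 fold change of the 7 was -0.012, against -0.0016 over all genes tested, and the range was -0.068 to 0.11. Groups overlapped for all 7, as they did for all but 0.538% of genes tested. The second comparison set GFP-positive against GFP-negative cells. In it 5 genes were higher in GFP-positive cells (Mnx1, Isl2, Isl1, Lhx4 and Lhx3), 1 was lower (Ldb1), and Lmo4 did not pass. Over all 19763 genes tested, 61.9% were called, 30.1% higher and 31.8% lower. The Mnx1 difference describes the sort, and Isl2 passed the filter on low counts through the GFP-positive libraries. With those genes set aside, Isl1, Lhx4 and Lhx3 were higher and Ldb1 was lower. In bulk samples, fewer cells of a type and less RNA per cell cannot be told apart.

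**Figure D1:**
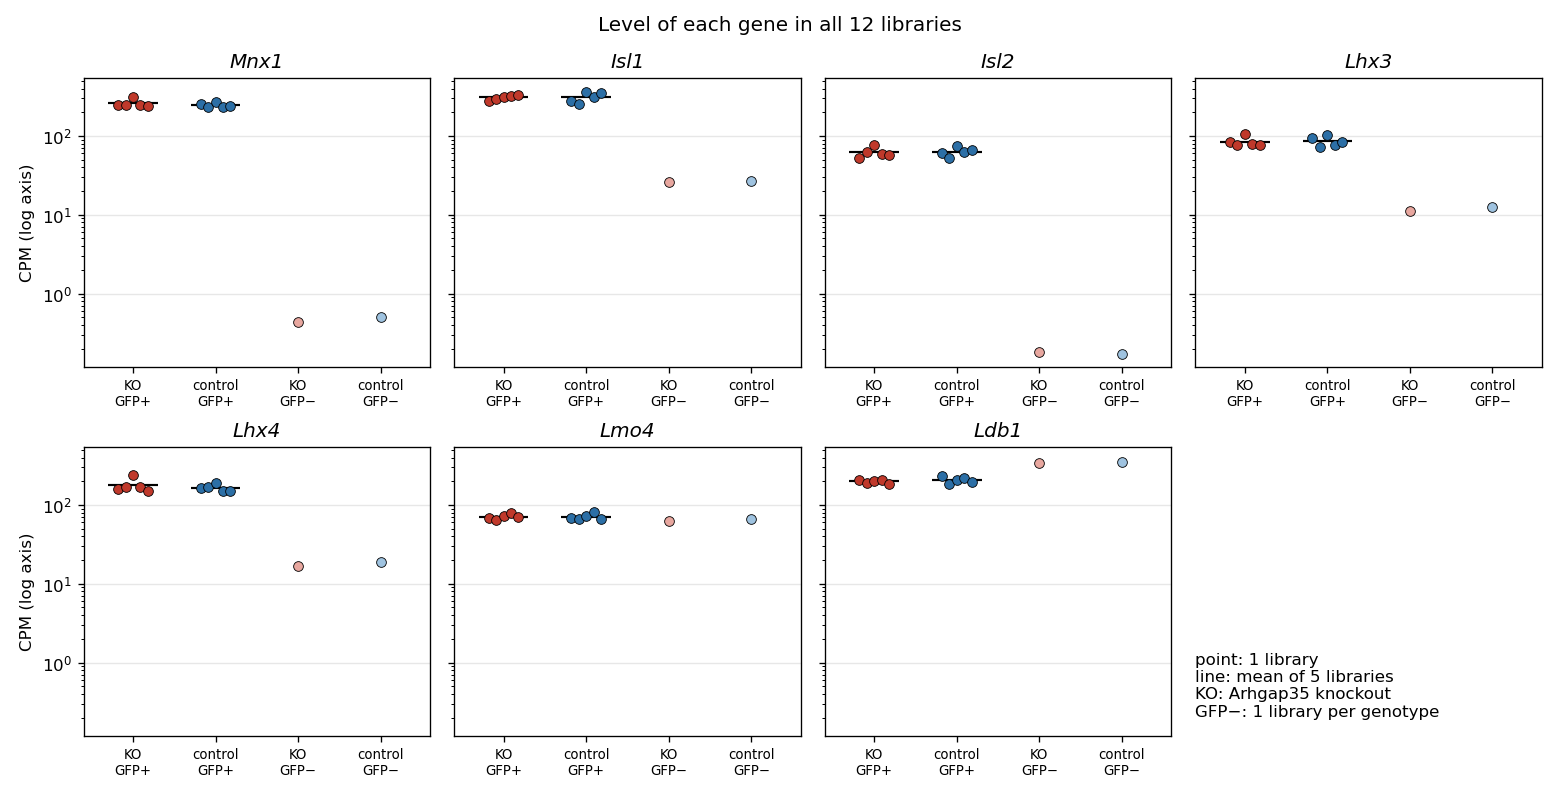
CPM of each of the 7 genes (vertical, log axis) in all 12 libraries by group, with 1 point per library and a line at the mean of 5. Knockout and control GFP-positive libraries overlap in every panel, while Mnx1 and Isl2 lie below 1 CPM in both GFP-negative libraries.

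Mnx1, the repressor that names the reporter, stood at 245, 248, 315, 246 and 239.8 CPM in knockout replicates 1 to 5 and at 256, 229.6, 273, 234 and 242 CPM in control replicates 1 to 5. Knockout replicate 3 was the highest library, and the other 4 knockout libraries lay within the range of the controls. Means were 259 ± 31.7 CPM in knockout and 247 ± 17.8 CPM in control cells (SD, n = 5 each). The log2 fold change was 0.068, its 95% confidence interval ran from -0.10 to 0.24 (edgeR adjusted p = 0.99994), and on the linear scale that interval spans 0.932-fold to 1.18-fold. In GFP-negative cells Mnx1 had 12 counts in the knockout library (0.438 CPM, exact Poisson 95% interval 0.227 to 0.766) and 15 counts in the control library (0.508 CPM, interval 0.285 to 0.839), intervals that cover counting error only. Those levels were 0.169% and 0.206% of the GFP-positive means of the same genotypes. The log2 difference between sorts was 9.04 (95% confidence interval 8.62 to 9.47), the 13th highest of 19763 genes. Since the sort acted on a reporter under the Mnx1 promoter, that difference describes the sort and is not a separate finding.

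Isl1 and Isl2 are the islet factors, of which Isl1 is required for motor neurons to form and both are used again as they mature. Isl1 stood at 274, 296, 313, 322 and 335 CPM in knockout replicates 1 to 5 and at 277, 253, 366, 309.99 and 348 CPM in control replicates 1 to 5. The knockout libraries all lay inside the control range. Means were 308 ± 23.9 CPM in knockout and 311 ± 47.2 CPM in control cells (SD, n = 5 each), with a log2 fold change of -0.012 (95% confidence interval -0.23 to 0.21, edgeR adjusted p = 0.99994). In GFP-negative cells Isl1 was still present, at 25.9 CPM in the knockout and 26.5 CPM in the control library, or 8.42% and 8.53% of the GFP-positive means. GFP-positive cells were higher by 3.56 on the log2 scale (standard error 0.154, edgeR adjusted p = 2.62e-09), with all 10 GFP-positive libraries above both GFP-negative ones.

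Isl2 stood at 52.8, 62.4, 77.1, 59.2 and 57.8 CPM in knockout replicates 1 to 5 and at 60.5, 51.8, 75.3, 62.5 and 65.4 CPM in control replicates 1 to 5. Replicate 3 was highest in both genotypes. Means of 61.9 ± 9.20 CPM in knockout and 63.1 ± 8.48 CPM in control cells (SD, n = 5 each) gave a log2 fold change of -0.029 (95% confidence interval -0.28 to 0.22, edgeR adjusted p = 0.99994). Unlike its paralogue, Isl2 was nearly missing from GFP-negative cells, with 5 counts in each library (0.183 CPM, exact Poisson 95% interval 0.0593 to 0.426, in the knockout and 0.169 CPM, interval 0.055 to 0.396, in the control library). The difference between sorts was 8.43 on the log2 scale (95% confidence interval 7.78 to 9.09), and that of Isl1 had an interval of 3.22 to 3.90. Isl2 passed the filter on low counts through the GFP-positive libraries, where it is high, and the Mnx1 difference describes the sort. The differences of Isl2 and Mnx1 between sorts are therefore given as descriptions. On log2(TPM + 1), where the pseudocount exceeds the GFP-negative level, the values shrank to 6.06 for Isl2 and 7.42 for Mnx1.

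Isl1 is also made by sensory neurons of the dorsal root ganglia, by 1 class of dorsal interneurons (dI3) and by sympathetic neurons. Sensory markers (8 genes) summed to 18.4 to 38.0 CPM in knockout and 18.7 to 39.2 CPM in control GFP-positive cells, against 136 CPM in the knockout and 151 CPM in the control GFP-negative library. Pou4f1, which dorsal interneurons also make, supplied 125 and 137 CPM of those knockout and control GFP-negative sums. The list went both ways between sorts, with 1 gene higher (Runx1, log2 fold change 2.27), 2 lower and 5 not called, and a median log2 fold change of -0.046. Dorsal interneuron markers (7 genes of several classes, which do not read dI3 cells alone) summed to 11.4 to 71.0 CPM in knockout and 9.91 to 105 CPM in control GFP-positive cells, against 646 and 707 CPM in the knockout and control GFP-negative libraries. Sympathetic markers, with Dbh at 0 counts in 7 GFP-positive libraries, summed to 2.19 to 3.31 CPM in knockout and 2.21 to 5.10 CPM in control GFP-positive cells, against 14.2 and 15.5 CPM in the knockout and control GFP-negative libraries. How much of the Isl1 level in either sort comes from such cells was not tested.

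Lhx3 and Lhx4 are close paralogues and act together in newborn motor neurons. Lhx3 stood at 83.5, 77.8, 107, 78.6 and 76.8 CPM in knockout replicates 1 to 5 and at 94.1, 72.6, 103, 77.8 and 83.9 CPM in control replicates 1 to 5. Both replicate 3 libraries were above 100 CPM and no other library was. Means were 84.7 ± 12.6 CPM in knockout and 86.2 ± 12.1 CPM in control cells (SD, n = 5 each), with a log2 fold change of -0.026 (95% confidence interval -0.28 to 0.23, edgeR adjusted p = 0.99994). GFP-negative cells kept 11.1 CPM in the knockout and 12.7 CPM in the control library, 13.1% and 14.7% of the GFP-positive means. The difference between sorts was 2.84 on the log2 scale (standard error 0.175, edgeR adjusted p = 4.84e-08).

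Lhx4 stood at 157, 171, 241, 169 and 151 CPM in knockout replicates 1 to 5 and at 163, 169.7, 193, 149 and 150.4 CPM in control replicates 1 to 5. Again replicate 3 was the highest in each genotype, and knockout replicate 3 exceeded every other library. Means were 178 ± 36.2 CPM in knockout and 165 ± 17.6 CPM in control cells (SD, n = 5 each), with the widest interval of the 7 genes (log2 fold change 0.11, 95% confidence interval -0.18 to 0.39, edgeR adjusted p = 0.99994). Without knockout replicate 3 the log2 fold change was -0.028, and for Mnx1 it was -0.013. GFP-negative cells held 16.8 CPM in the knockout and 18.9 CPM in the control library, and GFP-positive cells were higher by 3.26 on the log2 scale (standard error 0.204, edgeR adjusted p = 8.96e-08). V2a interneurons make both genes, and the 8 V2 genes summed to 114 CPM in the knockout and 122 CPM in the control GFP-negative library, far above the GFP-positive sums given earlier. Their part in the Lhx3 and Lhx4 levels of GFP-negative cells was not tested.

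Lmo4 and Ldb1 are the cofactors. Lmo4, the LIM-only competitor, stood at 68.1, 64.1, 73.1, 79.3 and 70.04 CPM in knockout replicates 1 to 5 and at 67.7, 65.6, 72.3, 80.7 and 66.2 CPM in control replicates 1 to 5. Replicate 4 was the highest in both genotypes, and the groups covered nearly the same range. Means were 70.9 ± 5.70 CPM in knockout and 70.5 ± 6.27 CPM in control cells (SD, n = 5 each), with a log2 fold change of 0.0092 (95% confidence interval -0.14 to 0.16, edgeR adjusted p = 0.99994). GFP-negative cells had 63.4 CPM in the knockout and 66.4 CPM in the control library, and the difference between sorts was not called (log2 0.12, 95% confidence interval -0.049 to 0.30, edgeR adjusted p = 0.199). On deposited TPM it was 0.22, which passed limma's test narrowly (adjusted p = 0.0466).

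Ldb1, the adaptor that bridges LIM factors, stood at 207, 192, 203, 209 and 184 CPM in knockout replicates 1 to 5 and at 235, 184, 207, 221 and 196 CPM in control replicates 1 to 5. The knockout library lay below the control of the same number in 4 of 5 pairs, but the groups overlapped. Means were 199 ± 10.8 CPM in knockout and 209 ± 20.0 CPM in control cells (SD, n = 5 each), with a log2 fold change of -0.068 (95% confidence interval -0.20 to 0.067, edgeR adjusted p = 0.99994). Between sorts Ldb1 ran the other way from the homeodomain genes. GFP-negative cells had 339 CPM in the knockout and 349 CPM in the control library, above all 10 GFP-positive libraries, so that Ldb1 fell by 0.75 on the log2 scale in GFP-positive cells (standard error 0.0693, edgeR adjusted p = 4.86e-07). Progenitor markers (6 genes) were also more abundant in GFP-negative cells. They summed to 406 to 499.9 CPM in knockout and 390 to 486 CPM in control GFP-positive cells. In the knockout and control GFP-negative libraries the sums were 1487 and 1394 CPM. Vim supplied most of each sum, averaging 365 and 346 CPM in knockout and control GFP-positive cells. It had 920 and 861 CPM in the knockout and control GFP-negative libraries. All 6 markers were lower in GFP-positive cells, against 31.8% of all genes tested. The part of progenitors in the Ldb1 difference was not tested.

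**Figure D2:**
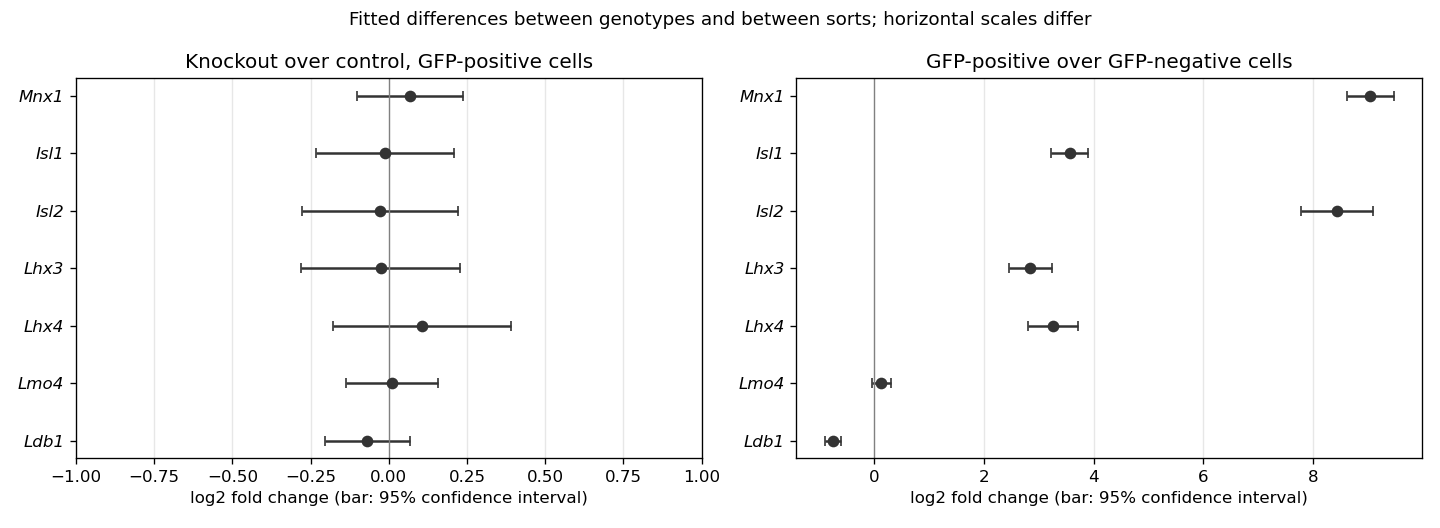
Fitted log2 fold changes (horizontal) of the 7 genes with 95% confidence intervals, knockout over control in GFP-positive cells at left and GFP-positive over GFP-negative cells at right, on different scales. All intervals at left include 0, with Lhx4 the widest (-0.18 to 0.39), whereas at right Mnx1 (9.04) and Isl2 (8.43) lie far above Lhx3 (2.84), and Ldb1 (-0.75) lies below 0.

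Whether the knockout effect differed between sorts was asked with an interaction term, taking each lone GFP-negative library to vary like the replicated groups. None of the 7 genes was called (edgeR adjusted p = 0.99997 for each, with 0 at an unadjusted p under 0.05, and DESeq2 and limma-voom called 0), where 0.0253% of 19763 genes were (0.0101% higher and 0.0152% lower). The intervals were wide for the genes with few GFP-negative counts. For Isl2 the difference of effects (GFP-negative minus GFP-positive) was 0.13 on the log2 scale with an interval of -2.24 to 2.51, and for Mnx1 it was -0.28 with an interval of -1.49 to 0.93. For Ldb1 it was 0.026 with an interval of -0.31 to 0.36.

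Levels of different genes were compared on the deposited TPM, which divide by transcript length. In knockout GFP-positive cells Isl1 averaged 366 ± 31.6, Ldb1 309 ± 18.4 and Mnx1 260.0 ± 31.3 TPM, followed by Lmo4 at 111 ± 10.6, Lhx4 at 103 ± 23.6, Lhx3 at 101 ± 15.6 and Isl2 at 85.2 ± 11.6 TPM (SD, n = 5). Control GFP-positive cells had Isl1 at 371 ± 49.8, Ldb1 at 324 ± 32.9, Mnx1 at 247 ± 15.8, Lmo4 at 109.7 ± 8.27, Lhx3 at 100.4 ± 13.4, Lhx4 at 93.2 ± 8.70 and Isl2 at 86.8 ± 11.5 TPM (SD, n = 5). The order differed between genotypes for Lhx3 and Lhx4 alone, whose ranges overlapped (89.9 to 128 TPM for Lhx3 and 88.3 to 144 TPM for Lhx4 in knockout cells). The first 3 genes stood apart from the last 4 in every GFP-positive library, and neighbours within either block overlapped in range, except Mnx1 and Ldb1 in controls (231 to 268 TPM against 292 to 372 TPM).

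In GFP-negative cells the order was another. Ldb1 led at 509 TPM in the knockout and 523 TPM in the control library, followed by Lmo4 at 92.5 and 96.1 TPM and Isl1 at 29.2 and 30.8 TPM. Lhx3 had 12.2 and 14.5 TPM and Lhx4 7.06 and 8.39 TPM. Mnx1 (0.428 and 0.530 TPM) and Isl2 (0.359 and 0.240 TPM) closed the list, with the knockout library first in each pair of values. Among all 30740 entries, Isl1 ranked 370th by mean TPM in knockout and 356th in control GFP-positive cells, but 6560th and 6328th in the knockout and control GFP-negative libraries.

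Ratios within a library describe the balance between partners and are given without a test. Lhx3 to Isl1 was 0.278 ± 0.0514 in knockout and 0.273 ± 0.0386 in control GFP-positive cells (SD, n = 5 each), against 0.416 and 0.469 in the knockout and control GFP-negative libraries, above all 10 GFP-positive libraries. Isl2 to Isl1 was 0.233 ± 0.0316 in knockout and 0.235 ± 0.0153 in control GFP-positive cells, against 0.0123 and 0.00779 in the knockout and control GFP-negative libraries, where it rests on 5 Isl2 counts each. Lhx4 to Lhx3 was 1.01 ± 0.0926 in knockout and 0.939 ± 0.139 in control GFP-positive cells, and lower in both GFP-negative libraries, at 0.580 in each. For Lhx4, 178 CPM stood beside 103 TPM in knockout GFP-positive cells, but 16.8 CPM beside 7.06 TPM in the knockout GFP-negative library. For Lhx3 these were 84.7 CPM beside 101 TPM and 11.1 CPM beside 12.2 TPM. The part of transcript length in the lower ratio was not tested.

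For the cofactors, Lmo4 to Ldb1 was 0.360 ± 0.0306 in knockout and 0.340 ± 0.0243 in control GFP-positive cells (SD, n = 5 each), with overlapping ranges of 0.326 to 0.397 and 0.299 to 0.359. In the knockout and control GFP-negative libraries it was 0.182 and 0.184, below all 10 GFP-positive libraries.

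**Figure D3:**
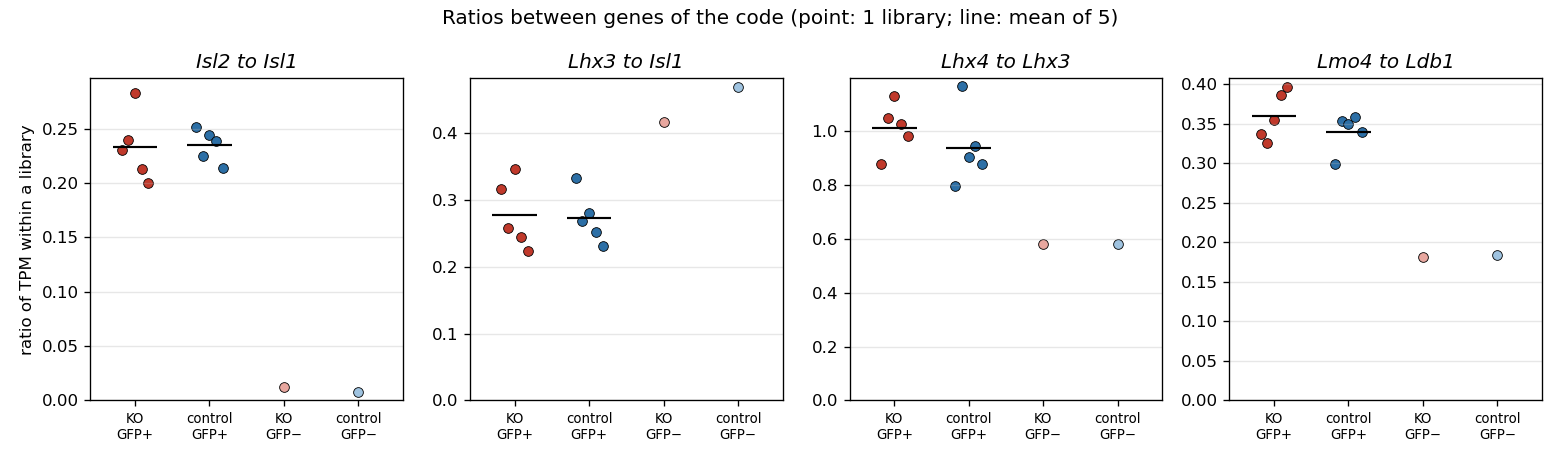
Ratios of TPM between pairs of genes within each library (vertical, linear from 0), by group, with a line at the mean of 5 GFP-positive libraries. Knockout and control GFP-positive libraries overlap in all 4 panels, while the GFP-negative libraries stand higher for Lhx3 to Isl1 (0.416 and 0.469) and lower in the other panels.

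Several members were highest in libraries of one replicate number, in both genotypes. For Mnx1, Isl2, Lhx3 and Lhx4, the knockout and the control library of replicate 3 were the 2 highest of 10, a pattern found in 2.82% of the 17487 genes tested and looked for after the values were seen. Isl1 was highest in control replicate 3 (366 CPM), while knockout replicate 3 was in place 5 of 10 (313 CPM). Lmo4 was instead highest in both replicate 4 libraries. The labels do not say what libraries of one number share. In the knockout and control libraries of replicate 3, V2 genes summed to 3.96 and 3.02 CPM and dorsal interneuron markers to 20.0 and 10.8 CPM. Motor neuron markers, which include Mnx1 and Isl2, summed to 1757 and 1840 CPM there. The part of cell composition in the replicate 3 pattern was not tested.

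Coefficients of variation between replicates ran from 5.40% (Ldb1) to 20.4% (Lhx4) in knockout and from 7.20% (Mnx1) to 15.2% (Isl1) in control GFP-positive cells. The median over the 10847 genes averaging 3 or more log2 CPM was 5.59% in knockout and 6.44% in control cells. Replicate 3 carried much of the spread of 4 genes in knockout cells and less of it in control cells. Since replicate 3 was picked for its high values, leaving it out tends to lower the coefficient. Without it the coefficients in knockout cells were 1.48% for Mnx1, 3.79% for Lhx3, 5.98% for Lhx4 and 6.90% for Isl2, against 12.2%, 14.9%, 20.4% and 14.9% with it. In control cells they were 4.80% for Mnx1 and 6.29% for Lhx4 without replicate 3, against 7.20% and 10.7% with it. Control Isl2 and Lhx3 kept 9.73% and 11.2% without replicate 3, against 13.45% and 14.1% with it.

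**Figure D4:**
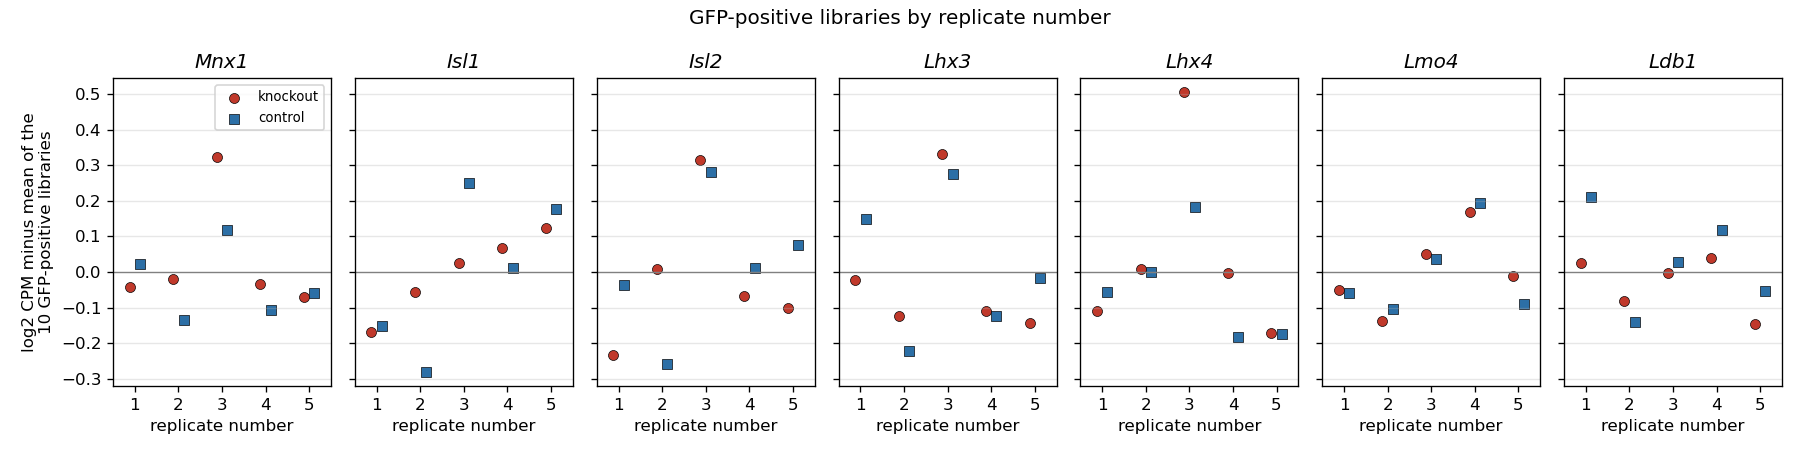
log2 CPM of each gene minus its mean over the 10 GFP-positive libraries (vertical), by replicate number, knockout as circles and control as squares. In Mnx1, Isl2, Lhx3 and Lhx4 the pair numbered 3 lies above all others, whereas Lmo4 is highest in the pair numbered 4.

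The 10 GFP-positive libraries share processing, and those of one number may share a source that the labels do not name. Across these 10, levels of Mnx1 followed those of Lhx3 (Pearson r = 0.901, Spearman rank correlation 0.806). After the 2 libraries farthest from the Mnx1 median were left out, r was 0.794. With Lhx4, Mnx1 had r = 0.912 and rank correlation 0.685, but only r = 0.235 without those 2 libraries, so that relation rests on them. Mnx1 and Isl1 had r = 0.286, and Isl1 and Lhx4 had r = 0.095 (n = 10 libraries each). These are 4 of the 21 pairs of members computed, given as descriptions.

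The genes whose levels most resembled each member over the same 10 libraries were taken as the highest 2 of 10675 candidates by r, so high values follow in part from that choice. For Mnx1 they were Met, the receptor for hepatocyte growth factor (r = 0.933, rank correlation 0.636), and the sorting nexin Snx18 (r = 0.931, rank correlation 0.867), and without the 2 farthest libraries r was 0.308 and 0.686. Lhx3 was most like Pcyox1 (r = 0.948) and Fam163a (r = 0.935). Lhx4 was most like the transcription factor Dach1 (r = 0.959, rank correlation 0.782) and Trerf1 (r = 0.945, rank correlation 0.879). Without the 2 libraries farthest from the Lhx4 median, r was 0.774 for Dach1 and 0.741 for Trerf1. Isl1 paired with Esyt1 (r = 0.970) and Adamts10 (r = 0.950). Isl2 paired with Gm7327 (r = 0.950, rank correlation 0.964) and Rimbp2 (r = 0.919, rank correlation 0.806). Without the 2 libraries farthest from the Isl2 median, r was 0.912 for Gm7327 and 0.756 for Rimbp2. For Lmo4 the pair was 1700094D03Rik (r = 0.943) and the kinase Mapk14 (r = 0.930), and for Ldb1 it was Suv420h2 (r = 0.981) and the gap junction gene Gjc1 (r = 0.963). For the pairs of Lhx3, Isl1, Lmo4 and Ldb1, r without the 2 libraries farthest from the member's median ran from 0.822 to 0.958.

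Partners of the code outside these 7 genes were read from 4 lists. Between genotypes 0 members of any of them were called, with Ldb2 the single member at an unadjusted p under 0.05 (log2 fold change 0.14, edgeR adjusted p = 0.99994). Median log2 fold changes between genotypes were -0.34 for 5 tested LIM homeodomain genes, -0.0045 for 8 LMO and LDB cofactors, 0.060 for 4 cholinergic genes and -0.27 for 6 tested V2 genes, against -0.0016 over all genes tested. Among them Lhx9 had a log2 fold change of -0.60 and a standard error of 1.07.

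Between sorts, all 4 cholinergic genes that the Isl1 and Lhx3 complex is known to bind were higher in GFP-positive cells, where 30.1% of all genes tested were. Slc18a3, the vesicular acetylcholine transporter, averaged 263 ± 20.3 CPM in knockout and 256 ± 20.2 CPM in control GFP-positive cells (SD, n = 5 each), against 4.13 and 4.61 CPM in the knockout and control GFP-negative libraries (log2 fold change 5.89, edgeR adjusted p = 2.59e-12). Chat, which makes acetylcholine, and the choline transporter Slc5a7 were higher by 6.26 and 6.85 on the log2 scale (edgeR adjusted p = 3.11e-11 and 1.09e-09). Slc18a3, Chat and Slc5a7 were also among the 7 markers used on the motor neuron label, so their values are not separate from that check.

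Of 8 LMO and LDB cofactors, 3 were higher, 3 lower and 2 not called, shares near the 30.1% higher and 31.8% lower among all genes tested. Ldb2, the paralogue of Ldb1, averaged 59.8 ± 4.79 CPM in knockout and 54.1 ± 1.97 CPM in control GFP-positive cells (SD, n = 5 each), against 4.79 and 5.76 CPM in the knockout and control GFP-negative libraries (log2 fold change 3.42, edgeR adjusted p = 5.42e-11). Ldb2 was thus higher in GFP-positive cells, where Ldb1 was lower. Lmo2 and the Ldb-binding protein gene Ssbp3 fell by 1.36 and 0.45 on the log2 scale (edgeR adjusted p = 1.58e-06 and 1.43e-05).

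Of 8 other LIM homeodomain genes, 5 passed the filter on low counts among GFP-positive libraries alone, and these 5 were lower in GFP-positive cells, where 31.8% of all genes tested were lower. Lhx8 and Lmx1a entered the test only with the GFP-negative libraries included and are not counted, and Lhx6 was not tested. Lhx5 averaged 22.6 ± 8.11 CPM in knockout and 30.3 ± 15.9 CPM in control GFP-positive cells (SD, n = 5 each), against 152 and 173 CPM in the knockout and control GFP-negative libraries (log2 fold change -2.63, edgeR adjusted p = 0.000196). Lhx1, which marks lateral limb-innervating motor neurons as well as interneurons, averaged 55.1 ± 21.9 CPM in knockout and 61.2 ± 35.0 CPM in control GFP-positive cells (SD, n = 5 each), against 319 and 351 CPM in the knockout and control GFP-negative libraries (log2 fold change -2.52, edgeR adjusted p = 0.000459). Lhx8 was below 0.5 CPM in every library.

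Among 8 V2 interneuron genes, 6 passed the filter among GFP-positive libraries alone, and these 6 were lower in GFP-positive cells, against 31.8% of all genes tested. Vsx1 and Foxn4 entered the test only with the GFP-negative libraries included and are not counted. Sox21 and Gata3 fell by 4.67 and 3.96 on the log2 scale (edgeR adjusted p = 0.000156 and 0.000247). Vsx1 was below 1 CPM in every library.

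**Figure D5:**
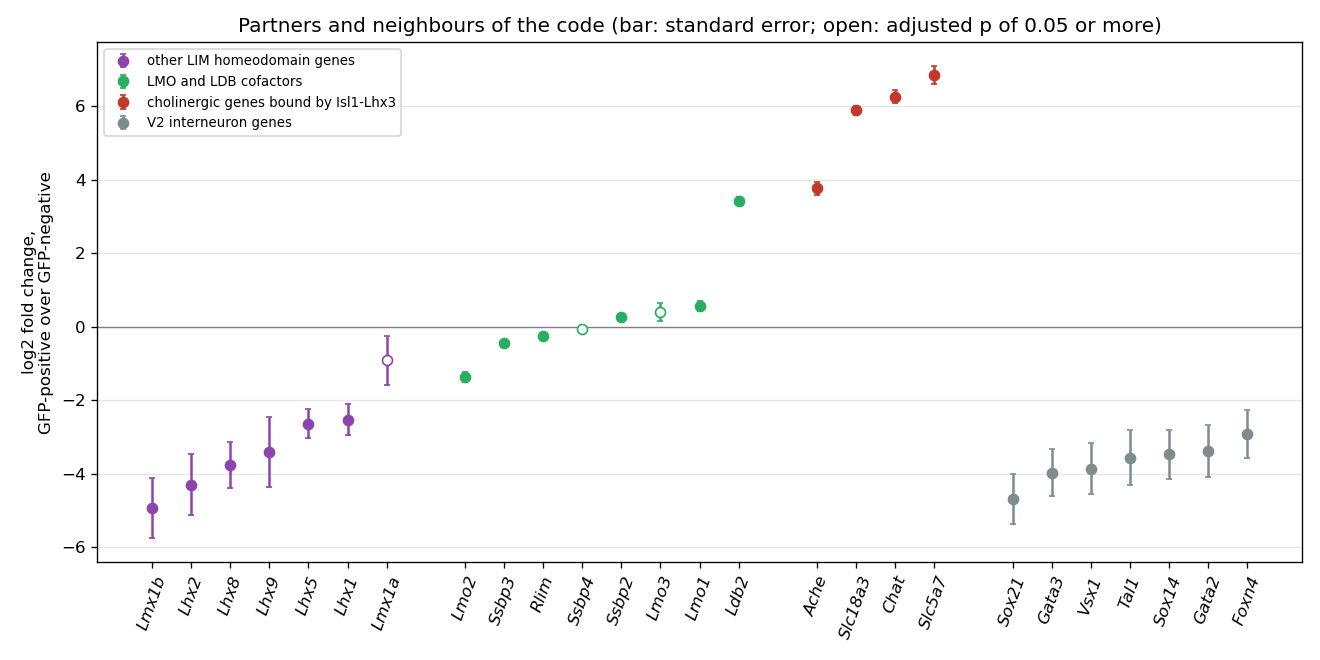
log2 fold change of GFP-positive over GFP-negative cells (vertical) with its standard error for partner genes, coloured by list, with open points for adjusted p of 0.05 or more. All 4 cholinergic genes lie above 0 and the V2 genes shown lie below it, of which Vsx1 and Foxn4, like Lhx8 and Lmx1a, were tested only with the GFP-negative libraries included, while the cofactors spread from Lmo2 (-1.36) to Ldb2 (3.42).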

How the data were processed

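RNA-seq was made with the Illumina TruSeq RNA v2 kit, per the labels' protocols, which does not keep strand. Reads of 50 bases were quantified with kallisto against mm10, per the submitters' processing notes, and the authors deposited estimated counts and TPM per gene symbol, with 30740 entries in each table. How transcripts were summed to genes is not stated, and the authors' TPM columns sum to 974800 to 1018241 per library, so they were used as deposited.

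Estimated counts were rounded to whole numbers, filtered with filterByExpr, TMM-scaled and tested with edgeR 4.0.16 (R 4.3.3), by the robust quasi-likelihood F-test with p-values adjusted by Benjamini-Hochberg over every tested gene and called under 0.05. The genotype fit used the 10 GFP-positive libraries. None of the main fits held a term for replicate number, so the intervals and p-values given with them do not use the pairing. Fits between sorts and for the interaction used all 12, and assume that each lone GFP-negative library varies like the others. Standard errors were taken as the size of the log2 fold change over the square root of F. The rules for named genes took all 7 members, the 2 most similar genes per member and the 3 genes of smallest p between sorts in each partner list. Members and lists were chosen with earlier results of these data known. The scripts were tested on simulated data.

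Libraries with the same replicate number deviated together (correlations of residuals of 0.59, 0.469, 0.193, 0.26 and 0.384 for numbers 1 to 5 over 10676 genes, against at most 0.206 between libraries of different numbers, which number 3 did not exceed). Since each was above 0.1, the numbers, which come from the titles, were taken to pair knockout with control libraries, less securely for number 3. The pairing entered only the alternative with a replicate block. No 2 replicates agreed within sampling noise. Alternatives were RLE and upper-quartile scaling, no filter, DESeq2 1.42.0, limma 3.58.1 (voom, and log2(TPM + 1) or log2(TPM + 0.1) at a mean TPM of 1 or more), a replicate block, all 12 libraries in the genotype fit, single genotypes, and each library left out (GFP-positive ones only in the genotype and interaction fits). Leaving out both GFP-positive replicates 1, or both replicates 3, and the replicate spread without replicate 3, were added after seeing the data. A count of 3 corresponds to 0.0891 to 0.127 CPM, depending on the library. Some genes of the lists are not reported individually here.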

Additional observations from a re-analysis of the deposited data

Results flagged for a closer look

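In 3 of the 24 groups of 5 values checked, 1 library stood apart from the rest by Dixon's criterion (the gap to the nearest library over the whole range, at the 95% level), and chance alone gives about 1 such group in 20. The groups are not independent, since some hold TPM ratios of the same genes and libraries, so that rate does not measure 3 such groups. All 3 concern 1 library, knockout GFP-positive replicate 3. Mnx1 was at 315.3 CPM there, with the next knockout library at 248.5 CPM (gap over range 0.885). Lhx3 was at 106.8 CPM, with the next at 83.5 CPM (0.774). Lhx4 was at 240.8 CPM, with the next at 170.7 CPM (0.777). The control library of the same number was the second highest of all 10 GFP-positive libraries for each of these genes. Without knockout replicate 3 the log2 fold changes between genotypes were -0.01267 for Mnx1, -0.1223 for Lhx3 and -0.02785 for Lhx4, and none was called.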

How the results depend on the processing

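Across 21 alternatives of the genotype fit 0 of 7 members were called, and across 18 of the interaction 0 were called. Between sorts 5 members, Mnx1 and Isl2 among them, were called higher in 22 of 24 alternatives. In the other 2 (limma on TPM) 6 were, with Lmo4 added, and Ldb1 was the 1 called lower in all 24. With the replicate block, 0 members were called between genotypes, 5 higher and 1 lower between sorts, and 0 in the interaction, so the pairing changed no call of a member. It did change the error. The smallest unadjusted edgeR p between genotypes with the block were 0.0827 for Ldb1, 0.119 for Mnx1 and 0.133 for Lhx4. Without the block they were 0.292, 0.398 and 0.428. Over all genes, the genotype fit called 6 genes, 14 with DESeq2, 5 with the block, 0 on either TPM scale, 0 without both replicates 1 or both replicates 3, and 0 to 8 with each GFP-positive library left out. The interaction called 5 genes, 2 with DESeq2, 0 with limma-voom or log2(TPM + 1), 1 with the block and 0 to 6 with each GFP-positive library left out.

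Signs of the small genotype differences changed in places, with no call in any, and the cause was not tested. On the log2 scale Isl1 was 0.0001977 with limma-voom, and Lhx3 was 0.004582 on log2(TPM + 1) and 0.004614 on log2(TPM + 0.1). Without both replicates 1 Isl2 was 0.008574 and Lhx3 0.01318, and without both replicates 3 Isl1 was 0.04719. With each GFP-positive library left out in turn, Mnx1 ran from -0.01267 to 0.1064, Isl1 from -0.07769 to 0.05267, Isl2 from -0.1195 to 0.04225, Lhx3 from -0.1223 to 0.04359, Lhx4 from -0.02785 to 0.1667 and Lmo4 from -0.03457 to 0.0624. The interaction ran from -0.0847 to 0.04653 for Isl1 and from -0.02051 to 0.06708 for Ldb1.

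With 1 GFP-negative library per genotype, the spread among GFP-negative cells was not measured. Depth limits Mnx1 and Isl2 there, at 15 counts or fewer per library.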
